A study of Saccharomyces cerevisiae with 8 samples.

Results

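Transcript levels of the temperature-sensitive met30-6 strain of *Saccharomyces cerevisiae*, budding yeast, were compared with those of strain PY1 at 25 °C, the permissive temperature. The comparison took the 4 arrays held at that temperature, out of 8 Affymetrix expression arrays in all. They were chosen by the strain and temperature in their titles, which give RT in place of 25 °C for these 4. The choice gave 2 arrays of met30-6, whose strain label adds py283, and 2 of PY1. Both strains grew to mid-log phase in YPDA, a rich medium, and were kept for 1 h at 25 °C before freezing. The other 4 arrays held the same strains after 1 h at 35 °C and are given here beside the 25 °C values. No source used here states PY1's genotype or any further difference between the strains, so the effect of the allele and that of the strain cannot be told apart. Whether the replicate arrays of a group stem from different cultures is not stated, and p-values therefore cover sample-to-sample spread that could be purely technical.

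Met30 is the substrate-recognising F-box protein of an SCF ubiquitin ligase, a complex built on the cullin Cdc53 with Skp1 and Hrt1. It keeps Met4 inactive by attaching ubiquitin to it. Met4 is a transcriptional activator without a DNA-binding domain of its own: it reaches the promoters of sulfur genes through Cbf1, Met28, Met31 and Met32, and switches on the genes that take up sulfate and turn it into methionine, cysteine and S-adenosylmethionine. In rich medium with ample methionine this programme is normally low. A temperature-sensitive strain is grown at the lower temperature because its protein is then assumed to work. The comparison asks which transcripts differed from PY1 before any shift to 35 °C.

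The values were log2 expression values deposited by the authors, for 5449 named genes with 1 probe set each. Differences are met30-6 minus PY1 on that scale, with SE from limma, and a called gene is one whose adjusted p lay under 0.05. At 25 °C, 378 genes were called higher in met30-6, which is 6.94% of the genes tested, and 324 were called lower, which is 5.95%. Either direction together made 702 genes or 12.9%. Most differences were small, with a median size of 0.47 among called genes. Only 78 genes (1.43%) were called and at least 2-fold higher, and 31 (0.569%) were called and at least 2-fold lower. The number of genes called higher was 248 without PY1 25 °C replicate 2. Leaving out met30-6 25 °C replicate 1 gave 206 higher and 162 lower, and leaving out its replicate 2 gave 201 and 173. The counts of at least 2-fold differences moved less, between 73 and 87 higher and between 30 and 41 lower. Both met30-6 arrays lay above both PY1 arrays for 28.4% of all genes and below them for 27.4%, and the median difference over all genes was 0.0055. Array medians lay between 10.97 and 11.09, and replicate arrays correlated across probe sets at r of 0.9927 to 0.9951. The SD between the 2 arrays of a group grew as signal fell: its median was 0.046 for genes with a mean of 12 and over, and 0.315 for genes under 6.

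**Figure D1:**
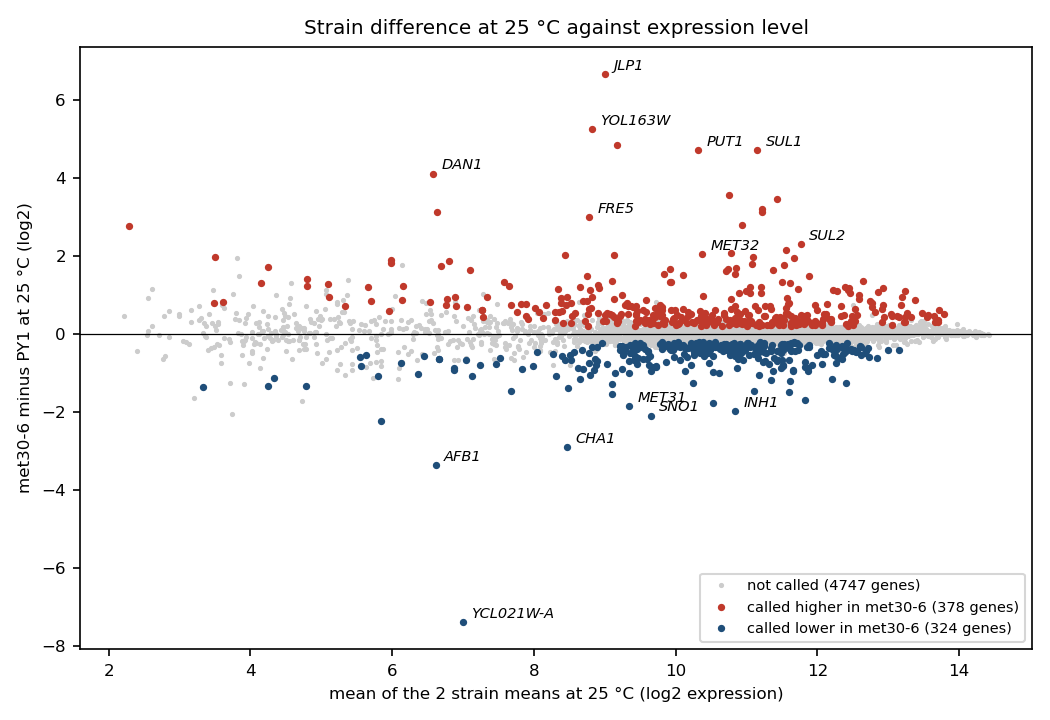
Difference between met30-6 and PY1 at 25 °C (log2, vertical axis) against the mean level of both strains at 25 °C (log2, horizontal axis), 1 point a gene, with the 378 genes called higher in red, the 324 called lower in blue and the others in grey. Most called genes lie close to 0, and a small number with large differences, most of them higher in met30-6, stand apart, among them *JLP1*, *SUL1*, *PUT1* and *YCL021W-A*.

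The genes of sulfur metabolism stood highest. All 10 measured genes of sulfate uptake and reduction were called higher in met30-6 at 25 °C, with a median difference of 1.28, and the count stayed at 10 when any 1 of the 8 arrays was left out. Of 10 measured genes that bring in or break down organic sulfur compounds, 8 were called higher, with a median of 2.16. Over all genes, 6.94% were called higher. The later steps moved less: 5 of 8 genes from homoserine to methionine, 5 of 10 of the S-adenosylmethionine cycle and 6 of 12 of transsulfuration and glutathione turnover were called higher, with medians of 0.42, 0.33 and 0.27. Without PY1 25 °C replicate 2 these last medians were 0.27, 0.22 and 0.19.

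*SUL1* and *SUL2* encode the high-affinity sulfate permeases of the plasma membrane. *SUL1* measured 8.85 and 8.74 on the PY1 arrays and 13.48 and 13.54 on the met30-6 arrays at 25 °C. The groups did not come near each other, and *SUL1* was 26.3-fold higher in met30-6 (difference 4.72 ± 0.11, SE, adjusted p = 1.52e-06). *SUL2*, brighter in PY1 to begin with, measured 10.67 and 10.57 in PY1 and 12.94 and 12.89 in met30-6, a difference of 2.30 ± 0.07. Inside the cell, sulfate is activated by ATP sulfurylase, encoded by *MET3*, phosphorylated by the kinase that *MET14* encodes and reduced to sulfite by the product of *MET16*. The differences of these genes were 1.19, 1.09 and 1.20. Sulfite reductase, which makes sulfide, has its subunits encoded by *MET5* and *MET10*, which were higher by 0.96 and 1.36. Siroheme, the cofactor of that enzyme, is made by the products of *MET1* and *MET8*, which were higher by 1.48 and 1.98. The lowest of the 10 was *MET22*, whose phosphatase removes the nucleotide left over from sulfate reduction: it measured 12.54 and 12.33 in PY1 and 13.07 and 13.17 in met30-6, with a difference of 0.69.

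The genes for organic sulfur showed the largest difference of any gene called higher. *JLP1* encodes a dioxygenase that releases sulfite from sulfonates. It measured 6.02 and 5.35 in PY1 and 12.39 and 12.28 in met30-6, a difference of 6.65 ± 0.20 (adjusted p = 4.71e-06). In PY1 it was among the dim genes, where values are least exact. *BDS1*, which encodes an arylsulfatase, measured 9.76 and 9.64 in PY1 and 13.16 and 13.18 in met30-6, and was 11-fold higher. Transporter genes were also higher: *YCT1*, which encodes a cysteine transporter, at 3.20, *SEO1*, for a permease of uncertain substrate, at 3.57, and *AGP3*, for an amino acid permease, at 3.11. The methionine permease genes *MUP1*, of high affinity, and *MUP3*, of low affinity, were higher by 0.64 and 1.20, and the oligopeptide and glutathione transporter gene *OPT1* by 1.09. The remaining measured members were amino acid permeases of broad range: *GNP1* had 0.26 (adjusted p = 0.062) and *AGP1* had 0.11 (adjusted p = 0.49), and neither was called.

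**Figure D2:**
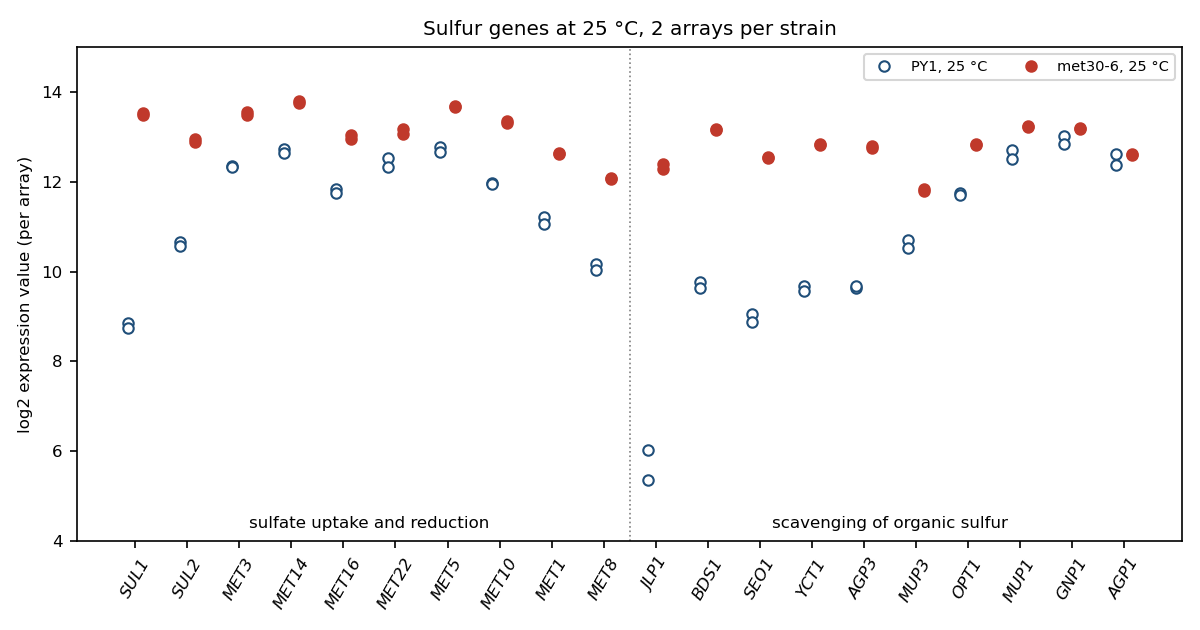
Deposited log2 value (vertical axis) of the 10 measured genes of sulfate uptake and reduction and the 10 of organic sulfur scavenging on each of the 4 arrays at 25 °C, with open points for PY1 and filled points for met30-6, 1 point an array. In *SUL1*, *JLP1* and *BDS1* both met30-6 points lie far above both PY1 points, while those of *AGP1* lie within 1 unit of each other.

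Downstream of sulfide, *MET17* encodes the enzyme that joins sulfide to O-acetylhomoserine, and *MET2* the enzyme that makes O-acetylhomoserine. *MET2* measured 10.85 and 10.54 in PY1 and 12.65 and 12.64 in met30-6, a difference of 1.95 ± 0.10. *MET17*, among the brightest genes of the array in both strains, was higher by 0.51 ± 0.07. *MET13*, whose methylenetetrahydrofolate reductase supplies the methyl group of methionine, was higher by 1.05. *HOM6*, for homoserine dehydrogenase, and *MET6*, for methionine synthase, were called at 0.37 and 0.47, but both calls were lost without any 1 of 7 arrays, all except PY1 25 °C replicate 1. Their largest adjusted p values were then 0.151 and 0.157, and the pathway count fell from 5 to 3. *HOM3* (0.08), *HOM2* (−0.08) and *MET12* (−0.06) were not called.

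S-methylmethionine can be taken up by the permease that *MMP1* encodes and used to make methionine by the methyltransferase that *MHT1* encodes. *MHT1* measured 11.10 and 10.84 in PY1 and 12.25 and 12.29 in met30-6, a difference of 1.30, and *MMP1* was higher by 1.13. *SAM4*, another methyltransferase gene in this list, had −0.15 and was not called. Of the S-adenosylmethionine synthetase genes, *SAM2* was called higher by 0.49, with the call lost without either met30-6 25 °C array, while *SAM1* had 0.37 (adjusted p = 0.071). *SAM3*, for the S-adenosylmethionine permease, and *CHO2*, for a phospholipid methyltransferase that uses S-adenosylmethionine, were called at 0.47 and 0.30. The call of *SAM3* was lost without met30-6 25 °C replicate 1, and that of *CHO2* without either met30-6 25 °C array or PY1 25 °C replicate 2. The count for this cycle was 2 without met30-6 25 °C replicate 1 and 3 without replicate 2.

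Within transsulfuration and glutathione turnover, the calls that held without any 1 array were those of *DUG3* and *DUG2*. *DUG3* measured 10.40 and 10.49 in PY1 and 11.57 and 11.53 in met30-6, a difference of 1.10 ± 0.07 (adjusted p = 0.000167), and *DUG2*, which encodes its partner in cleaving glutathione, was higher by 0.59. The other glutathione-degrading genes measured, *DUG1* (0.23, adjusted p = 0.234) and *ECM38* (0.19, adjusted p = 0.111), were not called. *CYS3*, for cystathionine gamma-lyase, was higher by 0.62, *GSH1*, for the first step of glutathione synthesis, by 0.37, and *STR3* and *CYS4*, for cystathionine beta-lyase and beta-synthase, by 0.42 and 0.30. Each of these last calls was lost without met30-6 25 °C replicate 2, and, except for *GSH1*, also without met30-6 25 °C replicate 1. For *STR3* and *CYS4* other arrays did the same. *STR2*, for cystathionine gamma-synthase, was lower by 0.35 (difference −0.35), a call lost without met30-6 25 °C replicate 1. The count of genes higher in this group was 3 without met30-6 25 °C replicate 1 and 2 without replicate 2.

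The transcripts of Met4's own partners did not move together. *MET30* measured 11.06 and 10.99 in PY1 and 11.69 and 11.65 in met30-6, so it was 1.56-fold higher in the mutant strain (difference 0.65 ± 0.06, adjusted p = 0.000546). The allele need not alter the level of its own transcript, so this value does not check the strain label. *MET32* measured 9.38 and 9.31 in PY1 and 11.34 and 11.45 in met30-6, which is 4.15-fold higher. *MET31*, its paralog with a similar zinc finger, had the opposite order, with 10.33 and 10.21 in PY1 and 8.32 and 8.51 in met30-6, which is 3.61-fold lower. *MET28* was higher by 1.70. *MET4* had 0.28 ± 0.07 (adjusted p = 0.053) and was not called. *CBF1* was called at −0.35, but the call was lost without any 1 of 7 arrays, all except PY1 25 °C replicate 2, with an adjusted p of up to 0.182. The ligase subunit genes *CDC53*, *SKP1* and *HRT1* and the ubiquitin-conjugating enzyme gene *CDC34* had differences between −0.10 and 0.03 and were not called. Of 10 measured genes for other SCF substrate adaptors limma called 0, with 1 at an unadjusted p under 0.05.

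Beside *MET30* on the chromosome, *PIG2*, a putative regulatory subunit gene of the Glc7 phosphatase, measured 9.15 and 9.03 in PY1 and 10.71 and 10.77 in met30-6, a difference of 1.65 ± 0.07. Its difference was larger than that of *MET30* itself. The next measured gene on that side, *AGE2*, had −0.22 (adjusted p = 0.055). On the other side the nearest measured gene, *YIL046W-A*, was dim and had −0.70 (adjusted p = 0.166), and the one beyond it, *SYG1*, was called higher by 0.38, a call lost without PY1 25 °C replicate 2 or either met30-6 25 °C array. The measured genes flanking *MET31*, *YPL038W-A* and *EGD1*, had 0.08 and 0.15 and were not called.

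Several strongly higher genes lay next to each other. Of 5430 pairs of neighbouring measured genes, 51 were both called higher, 34 both called lower and 43 one of each. Only 11 pairs were both called and at least 2-fold in the same direction, and they were picked out after their values were seen. One stretch held *YOL164W-A*, *BDS1*, *YOL163W* and *YOL162W*, with differences of 1.72, 3.46, 5.24 and 4.85. *YOL163W* and *YOL162W* encode members of a family of putative permeases related to the allantoate transporter Dal5. *YOL163W* measured 6.13 and 6.25 in PY1 and 11.44 and 11.43 in met30-6, making it 37.8-fold higher. *MET28* had *YAP5*, a gene for an iron-responsive transcription factor, beside it at 1.33, and *YIR018C-A* beyond that at 1.00. *MHT1* lay next to *MMP1*, and *MET2* next to *YNL277W-A* (1.64). The gene spans of 10 of the 11 pairs did not overlap, the exception being *ECM12* and *YHR022C*. No chromosome was shifted as a whole, with chromosome medians between −0.0125 and 0.017.

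Apart from the sulfur genes and the stretch with *YOL163W* and *YOL162W*, the largest increases among the genes bright enough to name were in *PUT1*, *DAN1*, *HES1* and *FRE5*. *PUT1* encodes proline oxidase, the first enzyme of proline breakdown in mitochondria. It measured 7.94 and 7.99 in PY1 and 12.64 and 12.70 in met30-6, 26.0-fold higher (difference 4.70 ± 0.07, adjusted p = 1.54e-07). *PUT2*, for the second enzyme of the route, was higher by 1.00, and *PUT4*, for the proline permease, was lower (difference −0.89). In all, 4 of 24 genes of proline and nitrogen use were called higher (16.7%) and 1 lower (4.17%), against 6.94% and 5.95% of all genes. The count of higher genes was 2 without met30-6 25 °C replicate 1.

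*DAN1* encodes a cell wall mannoprotein that yeast normally makes without oxygen. It measured 4.47 and 4.58 in PY1, close to the bottom of the range, and 8.61 and 8.66 in met30-6, a difference of 4.11 ± 0.06, or 2.64 with values under 6 raised to 6. Of 14 measured DAN, TIR and PAU mannoprotein genes, 7 were called higher and 0 lower by limma, with a median of 0.66 (11 and 0 at an unadjusted p under 0.05). The shares called were 50% and 0%, against 6.94% and 5.95% of all genes. The genes called higher included *PAU5* at 1.86, *PAU24* at 1.20, *TIR4* at 0.88, *PAU4* at 0.71 and *TIR1* at 0.61. The PAU genes are near-identical copies, so their probe sets may share signal. *HES1*, which encodes an oxysterol-binding protein homolog, measured 5.19 and 4.95 in PY1 and 8.08 and 8.32 in met30-6, a difference of 3.13, or 2.20 with the same floor. Of 12 genes of sterol uptake and handling, 4 were called higher, *HES1* among them, and 2 lower. Those are 33.3% and 16.7%, against 6.94% and 5.95% of all genes. *ARE1*, for an acyltransferase that esterifies sterols, and *ECM22*, for a sterol-sensing transcription factor, were higher by 0.60 and 0.45, and *SUT2*, for a putative regulator of sterol uptake, had −0.45. The count of lower genes was 0 without met30-6 25 °C replicate 1 and 1 without any other single array. *HAP1*, for the heme-responsive activator, was higher by 0.63, while *CYC1*, for the main isoform of cytochrome c, was lower (difference −0.48).

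The iron regulon holds the genes that the activator Aft1 switches on when iron is scarce: cell wall proteins that retain siderophores, siderophore transporters and reductases. The list used here is wider than that. It also holds the gene for Aft1 itself, which was called higher, and a gene for iron transport into the vacuole, which was called lower. Of the 29 measured members of this list, 14 were called higher (48.3%) and 2 lower (6.9%), against 6.94% and 5.95% of all genes. Their median difference was 0.28. The count of higher genes was 8 without PY1 25 °C replicate 2 and 7 without either met30-6 25 °C array, and that of lower genes was 0 without either PY1 25 °C array. The members with the lowest adjusted p stayed called in each of these. *FRE5*, for a putative ferric reductase, measured 7.19 and 7.37 in PY1 and 10.34 and 10.23 in met30-6, an 8.03-fold difference. *ARN2* and *ARN1*, for siderophore transporters, were higher by 1.19 and 0.73, *FIT2*, for a siderophore-retaining mannoprotein, by 1.09, and *TIS11*, whose product degrades mRNAs of iron-using proteins, by 1.15.

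Also among the 15 largest increases were *FMO1* and *GRX8*. *FMO1*, for a flavin monooxygenase that oxidises thiols, measured 9.62 and 9.47 in PY1 and 12.32 and 12.35 in met30-6. The glutaredoxin gene *GRX8* was higher by 2.15, and, further down the order, the glutathione transferase genes *GTO1* and *GTO3* by 1.34 and 1.14. *PDC6*, the minor pyruvate decarboxylase gene, was higher by 1.32. By contrast, *SRX1*, for sulfiredoxin, which repairs oxidised peroxiredoxins, was lower (difference −0.64). The list of oxidative stress genes holds *GRX8*, *GTO1*, *GTO3* and *SRX1*, but not *FMO1* or *PDC6*. Of its 28 genes, 5 were called higher (17.9%) and 2 lower (7.14%), against 6.94% and 5.95% of all genes. The count of lower genes was 1 without either met30-6 25 °C array.

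**Figure D3:**
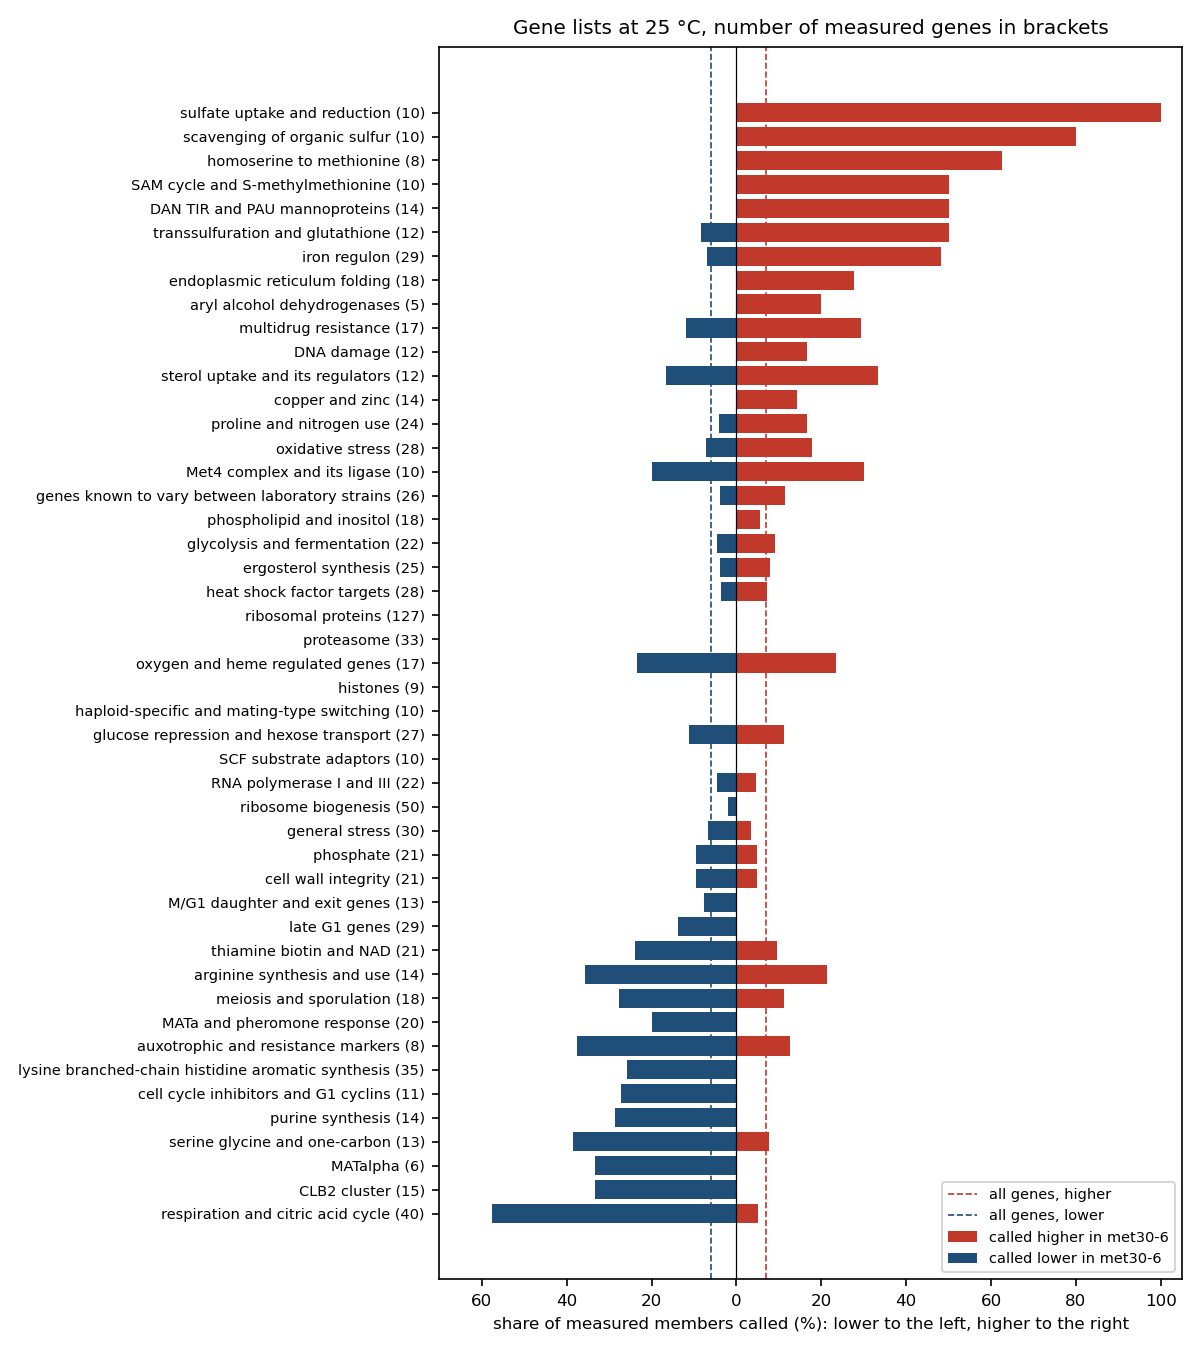
For the gene lists, the share of measured members called higher and called lower in met30-6 at 25 °C (percent, lower to the left and higher to the right), with the number measured in brackets and dashed lines at the shares over all genes. Sulfate uptake and reduction (100%) and scavenging of organic sulfur (80%) have the highest shares called higher, and respiration with the citric acid cycle (57.5%) has the highest share called lower.

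Among the genes that fell, those of mitochondrial respiration made up the list with the highest share called. Of 40 measured genes of respiration and the citric acid cycle, 23 were called lower and 2 higher, with a median of −0.37, against 5.95% of all genes called lower. The list was divided by complex after its values were known. The list's 4 genes of complex II (succinate dehydrogenase), its 9 of complex III (cytochrome bc1) and its 6 of complex IV (cytochrome c oxidase) were all called lower, with medians of −0.59, −0.51 and −0.46. The alternative forms of another complex IV subunit, held in the list of oxygen and heme regulated genes, went opposite ways. *COX5A*, the form used with oxygen, had −0.57, a call lost without met30-6 25 °C replicate 1. *COX5B*, the form used when oxygen is scarce, had 0.38, a call lost without either met30-6 25 °C array. Of the 17 measured genes in that oxygen and heme list, 4 were called higher and 4 lower, 23.5% each way, against 6.94% and 5.95% of all genes. The 25 °C arrays alone gave 2 and 2. Of 8 ATP synthase genes in the respiration list, 3 were called lower. The only regulator gene in the list, *HAP4*, was called lower too, at −0.39 (adjusted p = 0.00528). The 12 other citric acid cycle genes had 0 called lower by limma (2 at an unadjusted p under 0.05) and 2 called higher, one of them *CIT2*, for the peroxisomal citrate synthase, at 0.90. The whole-list count of lower genes ranged from 16 to 25 as single arrays were left out, and that of higher genes was 4 without PY1 25 °C replicate 1.

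*CYT1*, for cytochrome c1 of complex III, measured 11.82 and 11.88 in PY1 and 10.89 and 10.92 in met30-6, a difference of −0.94 ± 0.06 (adjusted p = 0.000112). *QCR10*, for a small subunit of the same complex, measured 12.34 on both PY1 arrays and 11.36 and 11.43 in met30-6. *SDH2*, for the iron-sulfur subunit of succinate dehydrogenase, had −0.83, and *COX4*, for a subunit of cytochrome c oxidase, had −0.74. These genes were named for the lowest adjusted p in their list, so a gap wider than the spread between replicate arrays follows from that choice. Both met30-6 arrays lay below both PY1 arrays for 27.4% of all genes. *INH1*, for the inhibitor protein of the mitochondrial ATP synthase, showed a larger decrease, with 11.88 and 11.77 in PY1 and 9.85 on both met30-6 arrays, which is 3.93-fold lower. Fewer transcripts per cell and fewer cells with a given transcript cannot be told apart in such bulk RNA.

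A second group of lower genes belongs to serine, glycine, one-carbon and vitamin metabolism. *CHA1*, for the catabolic serine and threonine deaminase, measured 9.89 and 9.93 in PY1 and 7.03 and 7.02 in met30-6, 7.39-fold lower (adjusted p = 1.52e-06). *GCV1* and *GCV2*, for subunits of the glycine cleavage complex, had differences of −1.47 and −1.21. *MTD1*, for a methylenetetrahydrofolate dehydrogenase, had −0.67. *SER33*, for the first enzyme of serine synthesis, moved up by 0.85. It was the only gene called higher (7.69%) in the list of 13 serine, glycine and one-carbon genes, which does not hold *CHA1*. In that list 5 genes (38.5%) were called lower, against 6.94% of all genes called higher and 5.95% called lower. The count of lower genes was 3 without met30-6 25 °C replicate 2, and that of higher genes was 2 without PY1 25 °C replicate 1. In purine synthesis 4 of 14 genes were called lower and 0 higher by limma (7 and 0 at an unadjusted p under 0.05), led by *ADE17*, for the enzyme of the last 2 steps to IMP, at −1.25. The share called lower was 28.6%, against 5.95% of all genes, and the count was 2 without either met30-6 25 °C array.

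*SNZ1* and *SNO1*, neighbours that share a promoter region and encode the 2 partners of pyridoxal phosphate synthesis, fell together. *SNZ1* measured 12.74 and 12.61 in PY1 and 10.96 and 10.99 in met30-6, and *SNO1* measured 10.78 and 10.60 against 8.55 and 8.65. Their differences were −1.70 and −2.09, and theirs was the only neighbouring pair called at least 2-fold lower on both sides. *BIO4*, for dethiobiotin synthetase, and *BNA4*, for an enzyme of NAD synthesis from tryptophan, had −1.47 and −1.25. The list of thiamine, biotin, pyridoxine and NAD metabolism holds *SNZ3* but not *SNZ1* or *SNO1*. Of its 21 measured genes, 5 were called lower (23.8%) and 2 higher (9.52%), against 5.95% and 6.94% of all genes. The count of higher genes was 1 without any single array at 25 °C or either PY1 array at 35 °C.

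Other large decreases had no common pathway. *HPF1*, for a cell wall mannoprotein, measured 11.47 and 11.37 in PY1 and 9.62 and 9.67 in met30-6. *HSP31*, for a glyoxalase of the DJ-1 family, had −1.48, *RPI1*, for a putative transcriptional regulator, −1.53, and *CRG1*, for a methyltransferase that uses S-adenosylmethionine, −1.27. The repressible acid phosphatase gene *PHO5* had −1.16, and the hexose transporter genes *HXT7* and *HXT4* had −0.96 and −0.92. *SUC2*, the glucose-repressed invertase gene, was higher by 0.95. All of these calls held without any 1 array. In arginine synthesis, *ARG3* and *ARG8* had −0.85 and −0.67, while *CPA1* was higher by 0.55. *CLB2* and *CLB1*, the mitotic cyclin genes, had −0.65 and −0.39. In their co-regulated cluster 5 of 15 genes (33.3%) were called lower, against 5.95% of all genes.

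The largest difference of all was in *YCL021W-A*, a gene without an assigned function. It measured 10.68 on both PY1 arrays and 3.74 and 2.88 in met30-6, a difference of −7.37 ± 0.36, or −4.68 with values under 6 raised to 6. It was near the bottom of the range in met30-6 at 35 °C too, with a mean of 2.21. It lies next to *LEU2*, which had −0.26, a call lost without any 1 of 7 arrays, all except PY1 25 °C replicate 2. On its other side *KCC4*, named after its value was seen, had 0.11 and was not called. Of 8 measured genes used as auxotrophic or resistance markers, 3 were called lower (*LEU2*, *HIS3* at −0.54 and *URA3* at −0.52), 1 was called higher (*MET17*, given above) and 4 were not called. The shares called lower and higher were 37.5% and 12.5%, against 5.95% and 6.94% of all genes. The call of *HIS3* was lost without either met30-6 25 °C array, and that of *URA3* without either of these or PY1 25 °C replicate 1, so that 0 of the 8 were called lower without either met30-6 25 °C array and 1 without PY1 25 °C replicate 1. Whether such strain markers have a part in the differences was not tested.

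The receptor and pheromone genes of the mating types had the same pattern in both strains, while a few other mating genes did not. The MATa-specific genes *STE2*, for the alpha-factor receptor, and *MFA1*, for a-factor, measured 13.23 ± 0.22 and 12.41 ± 0.12 in PY1 and 13.17 ± 0.04 and 12.50 ± 0.05 in met30-6 (SD, n = 2). The MATalpha-specific genes *MF(ALPHA)1*, for alpha-factor, and *STE3*, for the a-factor receptor, measured 3.77 ± 0.47 and 5.84 ± 0.28 in PY1 and 4.06 ± 0.06 and 5.84 ± 0.16 in met30-6. No difference was called for these genes. *SAG1*, another gene used as a MATalpha marker, was bright in both strains, with means of 9.97 in PY1 and 10.12 in met30-6. It was not called either. An exception among MATa markers was *BAR1*, for the protease that destroys alpha-factor, which was dim in both strains, with 4.48 and 5.16 in PY1 and 7.03 and 3.39 in met30-6. *AFB1*, by contrast, for a barrier protein that MATalpha cells make against a-factor, measured 8.45 and 8.13 in PY1 and 4.83 and 5.05 in met30-6, a difference of −3.35. The met30-6 values are as dim as those of *STE3*, and the difference was −2.29 when values under 6 were raised to 6. Of 20 genes of the MATa and pheromone response list, 4 were called lower and 0 higher by limma, among them *FUS1* (−0.82) and *AGA2* (−0.80), which act in mating cell fusion and adhesion. The share called lower in this list was 20%, against 5.95% of all genes, and the count was 2 without met30-6 25 °C replicate 1. *ASG7*, another gene specific to MATa cells, had −0.99 (the plot of gene lists counts it under MATalpha, where it was placed by mistake).

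Some gene lists gave few or no calls at 25 °C, and others had shares near those over all genes. Of 127 ribosomal protein genes, 33 proteasome genes and 9 histone genes, limma called 0, and none had an unadjusted p under 0.05. It called 1 of 50 ribosome biogenesis genes, *DBP8*, at −0.22, a call lost whichever 1 of the 8 arrays was left out, and 3 of 30 general stress genes, 1 higher and 2 lower. The 2 lower stress genes included *HSP12*, for a membrane-stabilising small heat shock protein, at −0.87. Of 28 heat shock factor targets, 2 were called higher and 1 lower, the latter being *HSP26*, a small heat shock protein gene, at −0.66. The shares called higher and lower were 3.33% and 6.67% for general stress. For heat shock factor targets they were 7.14% and 3.57%, against 6.94% and 5.95% of all genes. Without PY1 25 °C replicate 1 the counts of higher genes were 5 for general stress and 4 for heat shock factor targets. For general stress that count was 0 without met30-6 25 °C replicate 1, and for heat shock factor targets it was 1 without any of the other arrays at 25 °C. The counts of lower genes were 4 and 2 without PY1 25 °C replicate 2, and general stress had 1 without met30-6 25 °C replicate 1 or any 35 °C array.

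The same strain contrast after 1 h at 35 °C, measured on the other 4 arrays, called 1852 genes higher (34.0%) and 1781 lower (32.7%). The interaction, which tests whether the difference between the strains had another size at 25 °C than at 35 °C, was called for 2631 genes (48.3%). Of the 378 genes higher at 25 °C, 315 (83.3%) were also called higher at 35 °C, 18 were called lower and 45 were not called. Of the 324 genes lower at 25 °C, 196 (60.5%) were called lower at 35 °C, 59 (18.2%) were called higher and 69 were not called. The shared genes were 17% of the 35 °C higher list and 11% of the lower list. Of the 78 genes at least 2-fold higher at 25 °C, 71 were called higher at 35 °C and 0 lower, and their median difference was 1.49 at 25 °C and 2.49 at 35 °C. The 31 genes at least 2-fold lower at 25 °C had medians of −1.34 and −0.70. Across all 5449 genes the differences at the 2 temperatures had r = 0.543. This describes genes, which are not independent replicates.

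**Figure D4:**
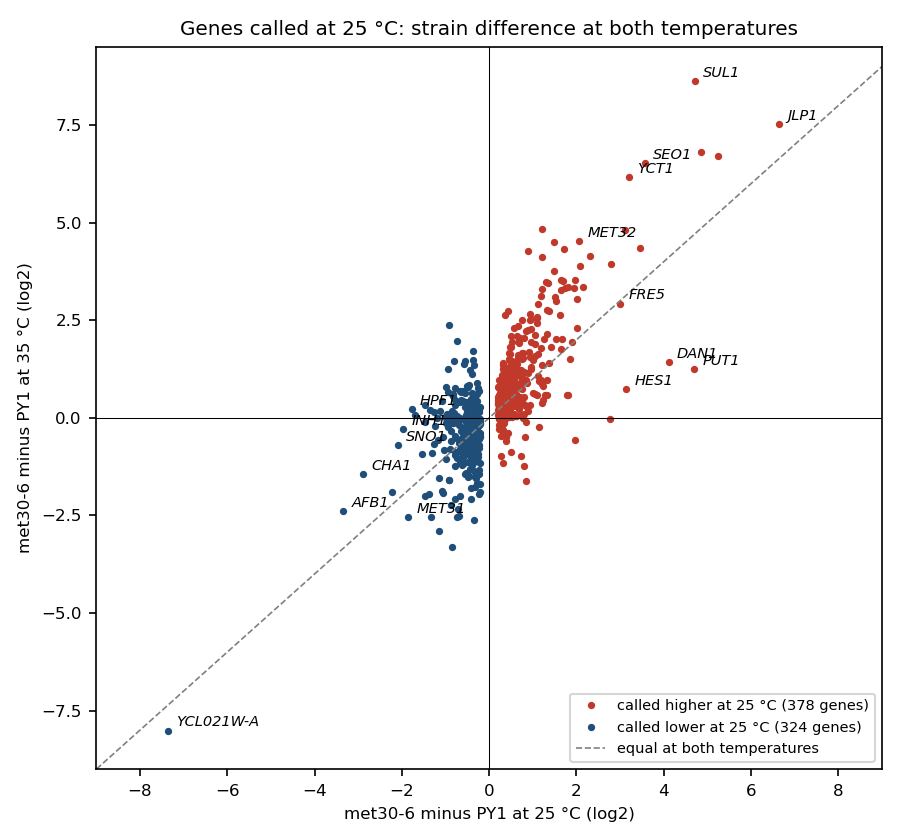
Difference between met30-6 and PY1 at 25 °C (log2, horizontal axis) against the same difference at 35 °C (log2, vertical axis), 1 point for each of the 702 genes called at 25 °C, with a dashed line where both would be equal. *SUL1* lies above that line at the upper right, *PUT1* and *DAN1* lie below it at the right, and *HPF1* lies at the left with a value above 0 at 35 °C.

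The sulfur genes differed at 25 °C by less than they did at 35 °C. All 10 sulfate genes and 8 of 10 organic sulfur genes had a called interaction in that direction, against 23.7% of all genes. Their medians at 35 °C were 3.32 and 3.82. *SUL1* had 4.72 at 25 °C and 8.63 at 35 °C, and the group means show that part of this lay in PY1, with means of 8.79 at 25 °C and 5.41 at 35 °C, while met30-6 had 13.51 and 14.04. *JLP1* had 6.65 and 7.53. *MET32* had 2.05 and 4.52, *MET28* 1.70 and 3.51, and *MET30* 0.65 and 2.10. *MET31* had −1.85 and −2.54, with an interaction of 0.68 (adjusted p = 0.00439). *PIG2* had 1.65 and 1.75, and an interaction of −0.10 that was not called (adjusted p = 0.455).

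A different set of genes differed more at 25 °C. *PUT1* had 4.70 at 25 °C and 1.25 at 35 °C, with an interaction of 3.45 (adjusted p = 1.48e-05). Its mean was 12.67 in met30-6 at 25 °C and 9.96 at 35 °C, whereas in PY1 it was 7.97 and 8.71. *DAN1* had 4.11 and 1.42, and *HES1* 3.13 and 0.74. *GTO3* had 1.14 and −0.23, the latter not called (adjusted p = 0.058). *FRE5*, in contrast, had 3.005 and 2.93, and its interaction of 0.08 was not called (adjusted p = 0.66).

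Respiratory genes were among those whose strain difference depended on temperature. Interactions in the direction of a lower value at 25 °C were called for all 4 genes of complex II, all 9 of complex III and 5 of the 6 of complex IV in the list, against 23.7% of all genes. At 35 °C 4 of 4, 5 of 9 and 0 of 6 of these were called higher in met30-6, against 34.0% of all genes, and 2 of complex IV were called lower. *QCR10* had −0.94 at 25 °C and 0.66 at 35 °C, and *SDH2* −0.83 and 0.56. *CYT1* had −0.94 and 0.03. Its level in met30-6 was 10.90 at 25 °C and 11.60 at 35 °C, while PY1 measured 11.85 and 11.57. *SNZ1*, *GCV1* and *GCV2* also had no called difference at 35 °C, where they measured 0.06, −0.10 and 0.01. The strain difference of each had been below −1 at 25 °C, and the interaction was called for all of them.

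**Figure D5:**
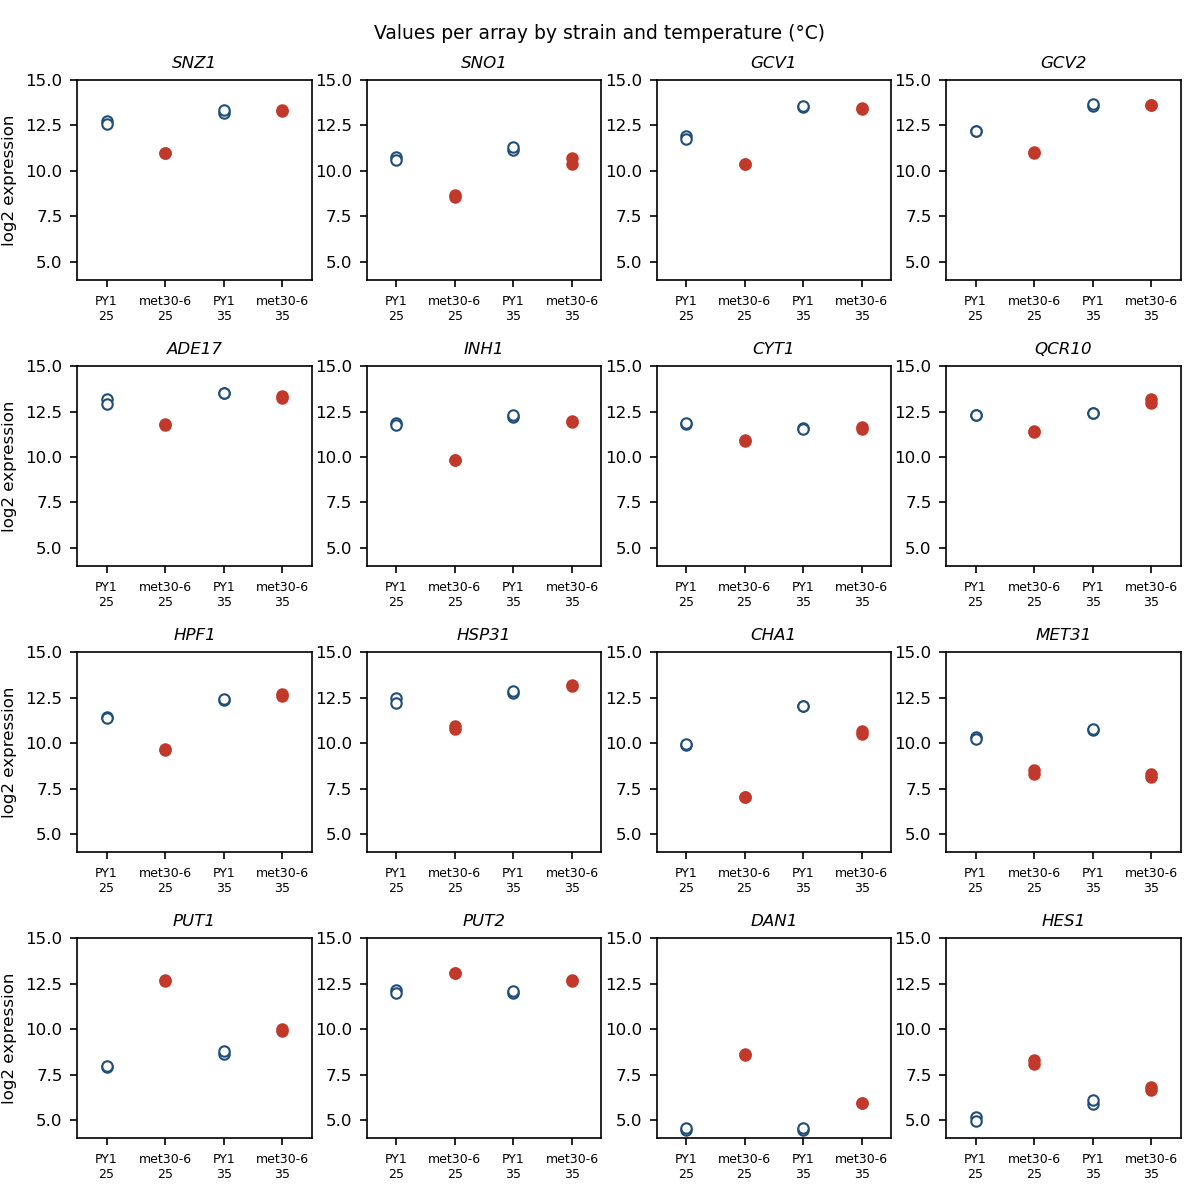
Deposited log2 values (vertical axis) of 16 genes in the 4 groups (PY1 and met30-6 at 25 °C and 35 °C), a panel a gene and 1 point an array, with open points for PY1 and filled points for met30-6. *PUT1* and *DAN1* are highest and *CYT1*, *SNZ1* and *GCV1* lowest in met30-6 at 25 °C, while *MET31* is low in met30-6 at both temperatures.

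Over all genes, 34.0% were called higher and 32.7% lower at 35 °C, against 6.94% and 5.95% at 25 °C. Calls were thus more frequent at 35 °C in general, and in some lists the shares rose further than that. Of 50 ribosome biogenesis genes, 49 were called lower in met30-6 at 35 °C and 1 at 25 °C. Of 29 late G1 genes, 26 were called lower at 35 °C and 4 at 25 °C, which is 13.8% of the list against 5.95% of all genes. The late G1 count at 25 °C was between 0 and 3 when any 1 array was left out, and it was 0 without met30-6 25 °C replicate 1. Of 30 general stress genes, 28 were called higher at 35 °C. *HO*, for the endonuclease of mating-type switching, measured 11.65 in PY1 and 11.53 in met30-6 at 25 °C (difference −0.12, adjusted p = 0.435), against 11.49 and 5.78 at 35 °C.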

How the data were processed

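Total RNA was labelled as biotinylated cRNA and hybridised to 8 Affymetrix arrays, per the labels' protocols. The authors deposited 1 table of processed values for 5716 probe sets, read here as log2. The base was inferred from their range, so every fold rests on it, and no source used here states the background correction, summarisation or scaling. Depth is not defined for arrays: precision is limited by their number, 2 a group.

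Names came from the platform's annotation (5498 with 1 symbol, 0 with several, 218 unnamed), with 12 symbols updated from a RefSeq gene table of assembly R64 that also gave neighbouring genes. Each of 5449 genes kept its probe set of highest mean, and 116 genes rest on probe sets that may match several transcripts. The fit, made with limma 3.58.1 under R 4.3.3 and no filter, used all 8 arrays and 1 mean a group (4 groups). The contrasts were the strain difference at 25 °C, that at 35 °C and the difference between them. Two-sided p-values received a Benjamini-Hochberg adjustment over the 5449 genes, with calls under 0.05. The procedure was checked on simulated data.

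Named genes were the 15 largest called differences in each direction with a brighter group mean of at least 7, 5 members with the lowest adjusted p of each of 47 gene lists, all members of the sulfur, marker, MATalpha and mannoprotein lists, and 2 neighbours on each side of *MET30* and *MET31*. A further 18 dimmer genes with at least 2-fold called differences were not named. The comparison, lists and tests were chosen with earlier results of these data known. Alternatives were other normalisations, a filter and a floor for dim genes, an intensity trend, the 25 °C arrays alone, other probe set rules, a replicate block and leaving out each array. Same-numbered arrays of the 25 °C groups deviated from their group means with r = −0.023, so the numbers were not taken to pair samples.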

Additional observations from a re-analysis of the deposited data

Results flagged for a closer look

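At 25 °C and 35 °C, 77 genes were called in opposite directions between the strains, 59 of them lower at 25 °C and higher at 35 °C, and the interaction was called for each. Of these, 7 are named above. The difference at 25 °C minus that at 35 °C was −2.00 for *HPF1*, −1.81 for *HSP31*, −1.60 for *QCR10*, −1.39 for *SDH2*, −1.36 for *HSP26*, −1.29 for *SRX1* and −1.02 for *LEU2*. All were lower in met30-6 at 25 °C and higher at 35 °C. The call of *LEU2* at 25 °C was lost without any 1 of 7 arrays.

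Among the 218 probe sets without a gene name, which the report leaves out, 14 were called higher and 21 lower in met30-6 at 25 °C when all probe sets were tested. Of these, 4 were at least 2-fold higher and 4 at least 2-fold lower. Their differences ran from −2.20 to 1.35.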

How the results depend on the processing

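Of 17 alternatives, those that kept 1 value a gene gave no gene called at 25 °C a call in the opposite direction. Testing all probe sets called 394 higher and 345 lower. Quantile normalisation called 530 genes higher and 534 lower, and a fit of the 25 °C arrays alone called 226 and 185, with fewer arrays to estimate the spread. With a replicate block there were 280 genes higher and 248 lower, of which 76 and 31 were at least 2-fold, and 2363 called interactions. Leaving out single arrays gave 201 to 408 genes higher, 162 to 281 lower, 73 to 87 at least 2-fold higher, 30 to 41 at least 2-fold lower, and 2111 to 2583 interactions. Where 1 array of a group was left, it was assumed to vary like the other groups. Of 2169 combinations of a named gene and an alternative, 2043 kept direction and call, 89 lost the call and 23 gained it. In 14 the sign turned, always in a gene not called. As single arrays were left out, *HOM2* ranged from −0.214 to 0.045, *SKP1* from −0.0905 to 0.0445, *STE2* from −0.212 to 0.094, *STE3* from −0.2005 to 0.1905, *MF(ALPHA)1* from −0.039 to 0.62, *AGP1* from −0.021 to 0.242, *CDC34* from −0.1945 to 0.0045, *EGD1* from −0.0085 to 0.3135, *HOM3* from −0.0545 to 0.2155, *MFA1* from −0.0045 to 0.1725 and *BAR1* from −1.433 to 2.214. With centred array medians *STE3* had 8e-04. The causes were not tested. No detection calls were analysed, so differences of dim genes such as *JLP1* in PY1 or *YCL021W-A* in met30-6 may be understated or overstated.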
